A study of Homo sapiens with 16 samples.

Results

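The circadian clock genes examined were PER1, PER2, PER3, CRY1, CRY2, ARNTL (now also named BMAL1), CLOCK, NR1D1, NR1D2 and DBP. Every probe of the array whose symbol was one of these 10 names was taken, which gave 12 of 20589 probes. A probe counted as detected where its detection p, set against the negative controls, was under 0.05 on at least 3 of the 16 arrays. This held for 8 of the 12 probes, which stand for 7 genes, and for 12321 probes of the whole array. The cells were MCF10HER2, made by stably over expressing the receptor kinase HER2 in MCF10A, a human mammary epithelial line that is not transformed. They grew without serum and without insulin, in medium that held hydrocortisone and epidermal growth factor. The small molecule CP724,714 targets the HER2 kinase and was given at 1 µM, and the medium was renewed at that moment. RNA came from parallel cultures every 3 h from 0 to 45 h, with 1 array per time point, so 15 arrays were of treated cells and the 0 h array was the only untreated one. No untreated culture later than 0 h was analysed here, so the effect of the inhibitor, of the fresh medium and of time in culture cannot be told apart. With no replicates, the spread of each gene was taken from the distance of single arrays to a fitted curve.

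The clock of mammalian cells is a feedback loop of transcription. CLOCK and ARNTL bind DNA as a pair and activate genes that carry an E-box, among them the PER and CRY genes, whose proteins return to the nucleus and repress the pair. A second loop runs through the nuclear receptors NR1D1 and NR1D2, which repress ARNTL, and the ROR receptors, which activate it through the same element. DBP is an output factor driven through E-boxes and acts on D-box elements. In cultured cells each cell keeps its own time, and a change of medium, serum, or a glucocorticoid can set the cells to a common phase, after which PER1 and PER2 rise early and ARNTL runs opposite to PER2 and DBP.

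The starts of 3 of the detected genes are shown as examples of the E-box letters that this loop uses. CRY2 and CLOCK, also detected, carry such letters too, as listed below, and are not shown. Each stretch is the 250 bases before the RefSeq start of the gene (GRCh38.p14), written 5′ to 3′ on the gene's own strand, with the match in capitals. PER1 lies at chr17:8152405-8152654 on the minus strand and holds the E-box CACGTG at -173 to -168 from the start. PER2 lies at chr2:238288611-238288860 on the minus strand and holds the variant CACGTT at -197 to -192. CRY1 lies at chr12:107093550-107093799 on the minus strand and holds that variant on the opposite strand, read as AACGTG, at -89 to -84.
PER1: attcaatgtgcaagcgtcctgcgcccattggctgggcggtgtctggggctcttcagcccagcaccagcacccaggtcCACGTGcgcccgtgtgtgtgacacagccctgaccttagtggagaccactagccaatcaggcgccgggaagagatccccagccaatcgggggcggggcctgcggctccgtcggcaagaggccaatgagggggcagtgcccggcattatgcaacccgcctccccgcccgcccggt
PER2: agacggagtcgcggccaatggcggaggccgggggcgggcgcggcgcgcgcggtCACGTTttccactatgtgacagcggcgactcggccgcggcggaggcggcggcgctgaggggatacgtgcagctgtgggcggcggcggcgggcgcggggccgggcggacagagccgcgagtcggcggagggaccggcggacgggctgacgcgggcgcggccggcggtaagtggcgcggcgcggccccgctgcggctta
CRY1: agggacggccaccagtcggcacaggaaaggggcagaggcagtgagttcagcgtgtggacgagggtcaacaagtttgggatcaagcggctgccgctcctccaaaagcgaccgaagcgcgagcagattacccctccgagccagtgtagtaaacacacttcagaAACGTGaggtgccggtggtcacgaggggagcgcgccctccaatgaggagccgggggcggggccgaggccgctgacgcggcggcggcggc
All 10 genes had an entry, with 15 starts between them. CACGTG was found before a start of 2 genes (PER1 and NR1D2) and in 6.34% of 35116 RefSeq promoters of the same length, and CACGTT before a start of 5 genes (PER2, CRY1, CRY2, CLOCK and NR1D1) and in 4.55% of promoters. The D-box letters TTATGTAA or TTACGTAA were found for PER3 and NR1D2 (0.94% of promoters), and the core TAGGTCA of the element bound by ROR and NR1D receptors for CRY2 (1.61%). The cyclic AMP element TGACGTCA (1.65% of promoters) and the glucocorticoid half-site TGTTCT (12.4%) were found for 0 of the 10 genes, and ARNTL and DBP held none of the 6 motifs in these windows. The counts are of genes with a match before any of their starts, while the percentages are of single promoters. A gene with several starts had more chances of a match, so counts and percentages are not like for like. Both strands were searched, and a match is a description of letters, not of binding.

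Between 10363 and 11436 probes were detected on an array. Dim arrays were those of 9 h and 18 h, whose upper quartile intensity was 397.3 and 418.4 while the rest lay between 553.2 and 803.7. The background signal lay between 135.9 and 148.9 from 0 to 21 h and between 164.5 and 173.9 from 24 to 45 h, so the arrays fall into 2 groups of 8 that coincide with the first and the second day. The labels name no chip or batch. Of 7 markers of a basal-type breast epithelial line, 6 were detected, with KRT5, KRT17 and EGFR on all 16 arrays. TP63 and CDH1 were detected on 14 and 15 arrays, both at a mean log2 intensity of 8.04, near the bottom of the scale. ERBB2, the gene for HER2 itself, was detected on 7 arrays at a mean log2 intensity of 7.98 by the brighter of its 2 probes, close to background, so the over expression of HER2 that the labels state was not seen at this probe. KRT14 was detected on 1 array. Of 7 markers of other cells, VWF, COL1A1, ESR1 and PGR were on 0 arrays and COL3A1 on 2, while PTPRC was detected on 7 arrays and PECAM1 on 16, both near the bottom of the scale with a mean log2 intensity of 7.95 and 8.16.

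The repressing receptors of the second loop were not detected, while RORA, an activating one, was detected on all 16 arrays at a mean log2 intensity of 8.13. NR1D1 and NR1D2, 1 probe each, and PER3, also 1 probe, were detected on 0 of 16 arrays, as was the second PER2 probe. Their intensities ran from 116.7 (NR1D2) to 215.1 (NR1D1), around the background signal of the arrays, and the lowest detection p on any array was 0.0819 for PER3, 0.164 for NR1D1, 0.179 for NR1D2 and 0.202 for the PER2 probe. Their transcripts were not detectable with these probes, and no level, phase or amplitude is given for them. The second ARNTL probe was detected on 3 arrays (15, 21 and 30 h) and stayed between a log2 normalized intensity of 7.92 and 7.98 over the whole course, and the values of ARNTL given from here on are those of the other probe, detected on all 16 arrays.

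ARNTL, the activating partner of CLOCK, spanned the widest range over time among the 7 detected genes named at the start. Some of the other clock genes described below ran wider, such as BHLHE40, from 9.72 to 12.36. Its log2 normalized intensity was 9.87, 10.01, 9.18 and 8.54 at 0, 3, 6 and 9 h. It was then 8.33, 8.51, 8.64 and 8.91 at 12, 15, 18 and 21 h, and 8.28, 8.42, 8.67 and 8.79 at 24, 27, 30 and 33 h. At 36, 39, 42 and 45 h it was 8.18, 8.18, 8.42 and 8.51. The first 3 arrays were above all 13 later ones, and the highest array was 3.56-fold above the lowest. CLOCK, its partner, was detected on 15 arrays (not at 18 h) and ran from 7.95 to 8.09 with a median of 8.02, a 1.10-fold range. The probe of CLOCK was dim.

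CRY1, a repressor of the loop, was 8.44, 8.97, 8.84 and 8.74 at 0, 3, 6 and 9 h. It was 8.20, 8.28, 8.30 and 8.33 from 12 to 21 h and 8.20, 8.27, 8.38 and 8.32 from 24 to 33 h. At 36, 39, 42 and 45 h it was 8.12, 8.16, 8.33 and 8.26. All 4 arrays of the first 9 h were above all 12 later ones. CRY2, its paralog, was 8.43, 8.51, 8.26 and 7.95 over the first 9 h, where the 9 h array did not detect it, and stayed between 8.13 and 8.33 from 12 h on. The CRY2 values of the first set spanned those of the later ones.

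PER2, a repressor and in cultured cells an early gene, was 9.62, 9.83, 9.38 and 8.34 at 0, 3, 6 and 9 h. It was 9.82, 9.85, 9.67 and 9.16 from 12 to 21 h and 9.38, 9.61, 9.34 and 9.15 from 24 to 33 h. At 36, 39, 42 and 45 h it was 9.43, 9.68, 9.69 and 9.35. The lowest array was the last one in each run of 4, at 9, 21, 33 and 45 h. The 9 h array, the lowest of all and one of the dim ones, was 2.84-fold below the 15 h array. PER1, the other detected PER gene, was highest at 0 h (8.23), lowest at 9 h (7.95, not detected there nor at 18 h) and had a median of 8.02, a 1.22-fold range.

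DBP, the output factor, spanned a narrow range. It was 8.36, 8.21, 8.07 and 8.09 at 0, 3, 6 and 9 h and 8.38, 8.36, 8.37 and 8.26 from 12 to 21 h. It was 8.25, 8.29, 8.30 and 8.24 from 24 to 33 h and 8.49, 8.52, 8.49 and 8.39 from 36 to 45 h. The last 4 arrays were above the other 12, and the highest array was 1.37-fold above the lowest. The offset used in the background correction pulls the ranges of dim probes such as CLOCK, PER1, CRY2 and DBP toward 1.

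**Figure D1:**
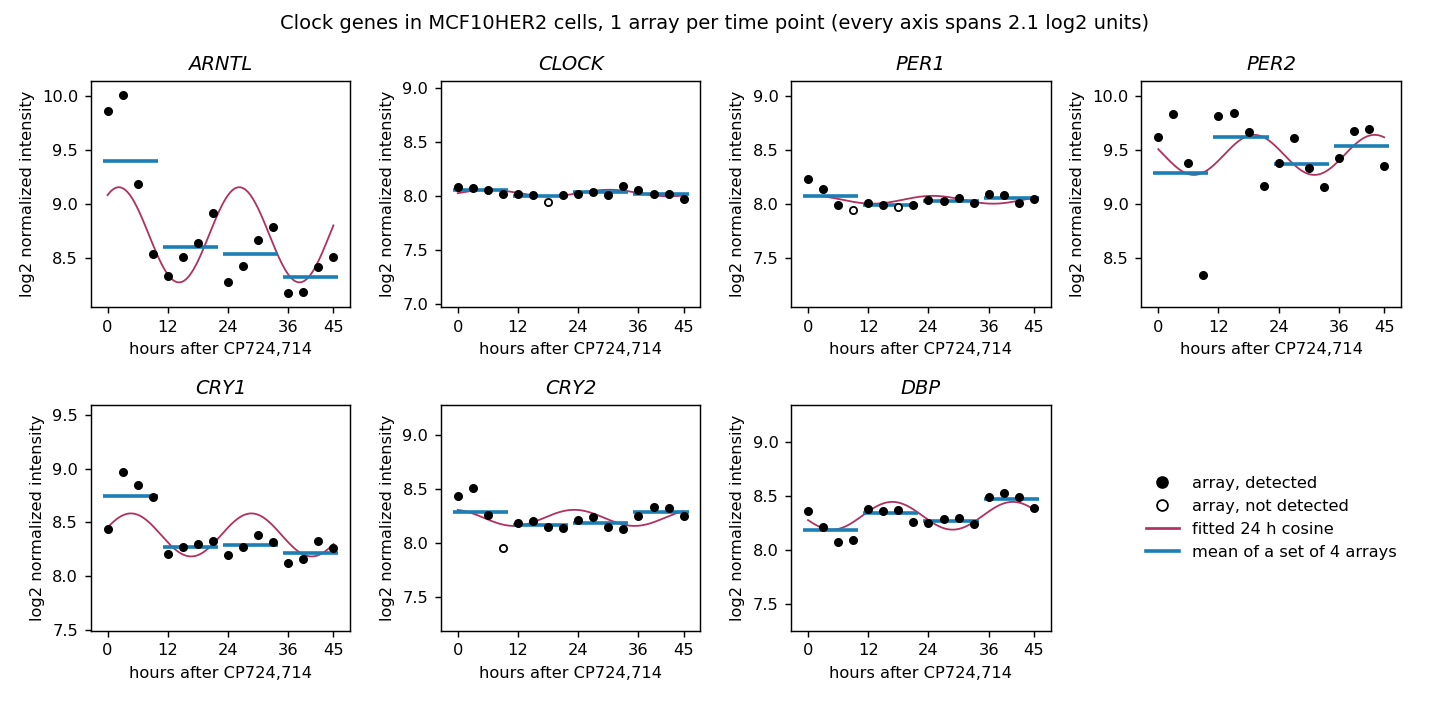
Log2 normalized intensity (vertical axis, the same span in each panel) of the 7 detected clock genes against hours after CP724,714 was added, with 1 point per array, the fitted 24 h cosine and the mean of each set of 4 arrays. ARNTL and CRY1 were high on the first arrays and lower from 12 h on, and the cosine misses the 0 h and 3 h arrays of ARNTL (9.87 and 10.01).

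A cosine with a 24 h period was then fitted to each probe and set against a constant level. None of the 8 clock gene probes passed (0 of 8 in limma's moderated F-test, lowest adjusted p = 0.517), and 0 of 12321 probes (0%) passed over the whole array, or 16 when a level for each of the 2 background groups of arrays was added. At an unadjusted p under 0.05, 3 of 8 passed, those of ARNTL, CRY1 and DBP, against 9.36% of all tested probes. The fitted amplitude, the distance from the mean to the peak in log2 units, had a median of 0.102 over the 8 clock gene probes and of 0.0522 over all tested probes, whose upper quartile was 0.125.

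The fitted waves differed in size and phase. ARNTL had an amplitude of 0.442 ± 0.15 (SE of the fit over 16 arrays) with a peak at 2.24 ± 1.3 h, which is a 1.84-fold distance from peak to trough. The upper 95% limit of its amplitude allows 2.84-fold. CRY1 peaked at 4.66 ± 1.3 h with an amplitude of 0.200 ± 0.069, or 1.32-fold with an upper limit of 1.61-fold. DBP peaked at 16.8 ± 1.0 h with an amplitude of 0.129 ± 0.034, or 1.20-fold with an upper limit of 1.32-fold. The fitted ARNTL and DBP peaks thus lay far apart on the day, while those of ARNTL and CRY1 were neighbours with overlapping SEs. PER2 peaked at 19.1 ± 2.5 h with an amplitude of 0.186 ± 0.12, and a peak-to-trough distance of up to 1.85-fold is within its upper limit. For CRY2, PER1 and CLOCK the amplitudes were 0.0747 ± 0.041, 0.0363 ± 0.023 and 0.0304 ± 0.011, with upper limits of 1.25-, 1.12- and 1.08-fold from peak to trough. These limits hold for this background correction and scaling only, since without background correction the fitted amplitudes of CRY2, PER1 and CLOCK were 0.175, 0.108 and 0.108, and with median scaling that of CLOCK was 0.139. The limits of CRY1 and DBP depend on it too, with amplitudes of 0.302 and 0.254 without background correction. The PER1 amplitude was 0.0134 without the 0 h array and 0.00505 with array weights, which moved its peak by 8.68 h. The upper limits are bounds on the fitted waves, not the size of the smallest rhythm that 16 single arrays could detect. Rhythms within these limits were not excluded. The ARNTL and CRY1 amplitudes rest on the first 9 h, since on the 12 arrays from 12 to 45 h alone they were 0.0936 and 0.0394. The PER2 amplitude was 0.0824 without the dim 9 h and 18 h arrays. Both of these subsets of arrays were chosen after seeing the data.

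The rival description was a level for each set of 4 arrays, with steps at 12, 24 and 36 h. The labels do not say that arrays were handled in such sets. This description passed for 3 of 8 clock gene probes (37.5%), those of CRY1 (adjusted p = 0.000203), DBP (adjusted p = 0.00209) and ARNTL (adjusted p = 0.00521), against 45.7% of all tested probes, so the share among the clock genes was no larger than that of the array as a whole. Each step is the difference between the means of neighbouring sets. The mean of CRY1 fell by 0.472 ± 0.084 from the first set to the second. It then differed between neighbouring sets by less than its SE, with steps of 0.0173 at 24 h and -0.0756 at 36 h. The mean of ARNTL fell by 0.802 ± 0.23 from the first set to the second. This fall does not date to 12 h, since ARNTL was 10.01 at 3 h, already 8.54 at 9 h, and 8.33 at 12 h. Its later steps of -0.0578 ± 0.23 and -0.218 ± 0.23 were within their errors. DBP showed steps of 0.159 ± 0.055 at 12 h, -0.0717 ± 0.055 at 24 h and 0.204 ± 0.055 at 36 h. With arrays scaled on their medians in place of quantile normalization, the 12 h step of DBP was -0.0896, the median 12 h step of all tested probes was -0.259, and the DBP call was lost. The step call of ARNTL was lost when a straight line in time was added, and that of CRY1 was kept in all 24 other settings.

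The cosine and the steps were also fitted together. Beside the steps, the cosine passed for 0 of 8 clock gene probes in limma and 0 of 8 at an unadjusted p under 0.05, against 0% and 3.97% of all tested probes, with a lowest adjusted p of 0.859 among these 8. Beside the cosine, the steps passed for 2 of 8, CRY1 (adjusted p = 0.00387) and ARNTL (adjusted p = 0.0184), against 37.6% of all probes. The ARNTL call was lost without the 27 h array, where 1 clock gene probe passed, and with a straight line added. For DBP the adjusted p of the steps was 0.133 once the cosine was in the fit, so neither description of DBP passed beside the other. Its steps did pass beside the cosine in 5 of 28 other settings, namely array weights, periods of 20, 26 and 28 h, and without the 0 h array. The cosine took up 34.5% of the variance of CRY1 and the steps 77.7%, with 34.9% and 59.7% for ARNTL and 51.9% and 70.7% for DBP. The medians over all tested probes were 15.2% and 47.2%, and the steps have 3 terms against 2. PER2 gave 13.2% for either one. The 2 models overlap by construction. The steps carry 85.4% of a pure 24 h wave that peaks at 4.5 or 16.5 h, close to the fitted peaks of CRY1 and DBP, and 0% of one that peaks at 10.5 or 22.5 h.

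The 8 arrays from 0 to 21 h and the 8 from 24 to 45 h each cover 1 full period. A wave that recurs unchanged would have the same size and phase in both. A recurring wave that loses amplitude with time would differ too, and this test cannot tell it apart from a change that does not recur. The fitted wave differed between the cycles for 2 of 8 clock gene probes, ARNTL (adjusted p = 0.00496) and CRY1 (adjusted p = 0.0257), against 29.4% of all tested probes. ARNTL had an amplitude of 0.791 ± 0.10 with a peak at 1.67 h in the first cycle and of 0.155 ± 0.10 with a peak at 5.53 ± 2.5 h into the second. CRY1 went from 0.349 ± 0.056 to 0.0519 ± 0.056. In both genes the wave of the second cycle was within 2 SE of 0. DBP had nearly the same fitted wave in both, with an amplitude of 0.131 ± 0.039 peaking at 18.0 ± 1.1 h and of 0.138 ± 0.039 peaking at 15.8 ± 1.1 h, and its adjusted p for a difference was 0.527. PER2 had amplitudes of 0.240 ± 0.17 and 0.136 ± 0.17 with peaks at 19.5 ± 2.7 and 18.3 ± 4.8 h, too imprecise to compare. CRY2 had 0.156 ± 0.048 in the first cycle, with a peak at 1.26 ± 1.2 h, and 0.0805 ± 0.048 in the second, with a peak at 17.9 ± 2.3 h. PER1 had 0.0918 ± 0.027 and 0.0193 ± 0.027, and CLOCK 0.0460 ± 0.014 and 0.0336 ± 0.014. The difference between cycles did not pass for these 3 genes, with adjusted p of 0.0856, 0.0827 and 0.132. The call of ARNTL was lost with a period of 20 h, and that of CRY1 in 7 of 28 settings, namely no background correction, a period of 20 or 28 h, and the fits without the 3, 6, 27 or 42 h array. With the period of 20 h, 0 of all 12321 probes passed.

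The cycles coincide with the 2 background groups of the arrays, and the fitted wave of many other genes also differed between the cycles. The test holds a level for each cycle, so it concerns the wave and not the level. All 7 tested genes of a list of mitosis genes passed it, against 29.4% of all tested probes. In other lists 4 of 5 immediate early, 4 of 20 other clock, 1 of 6 glucocorticoid-induced and 0 of 6 epithelial genes passed. The mean log2 intensity of the mitosis genes was 9.82 from 0 to 9 h, 10.70 from 12 to 21 h, 10.26 from 24 to 33 h and 9.98 from 36 to 45 h. With a level for each background group added to the fit of the 24 h cosine, the amplitudes of ARNTL, CRY1 and DBP stayed at 0.442, 0.200 and 0.129, and their adjusted p was 0.119, 0.133 and 0.0833. That fit called 0 of 8 clock gene probes and 16 of all 12321. The part of cell division in the clock gene values was not tested.

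**Figure D2:**
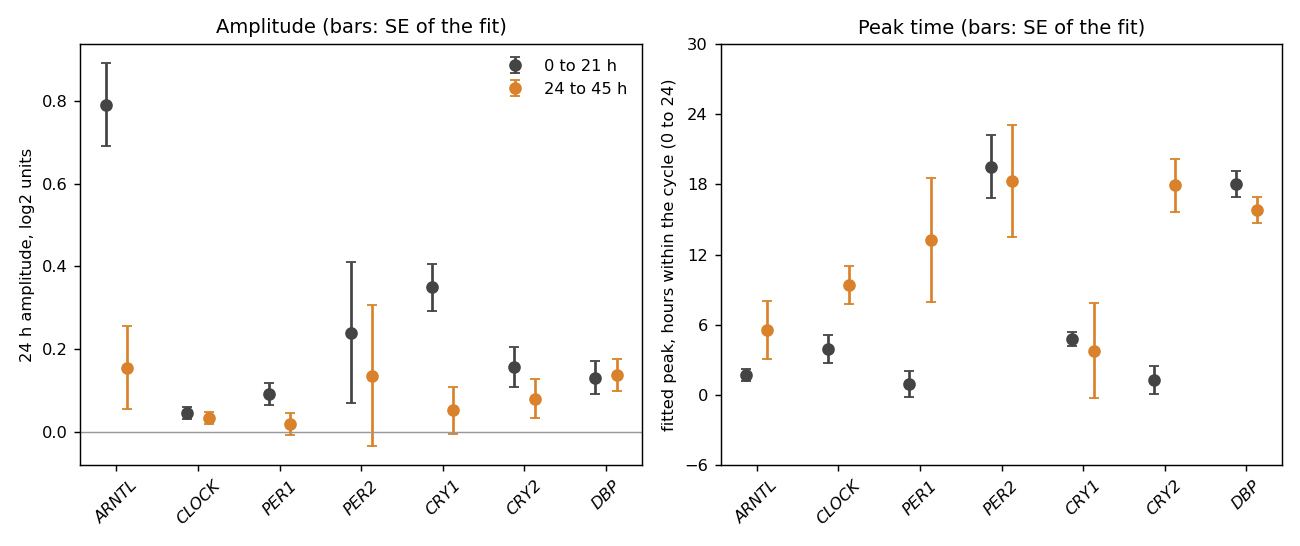
Amplitude in log2 units (left) and peak time in hours within the cycle (right) of a 24 h cosine fitted to the 7 detected clock genes, separately for 0 to 21 h and 24 to 45 h, with the SE of the fit as bars. ARNTL (0.791 and 0.155) and CRY1 (0.349 and 0.0519) lost amplitude, while DBP had 0.131 and 0.138 with peaks at 18.0 and 15.8 h.

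Within the sets of 4 arrays a second pattern was seen for ARNTL. From its first to its last array, ARNTL was 2.52-fold lower at 9 than at 0 h, but 1.49-fold higher at 21 than at 12 h, 1.42-fold higher at 33 than at 24 h and 1.26-fold higher at 45 than at 36 h. In each of the 3 later sets it was higher with each array or, at 36 and 39 h, about level, and then dropped back at the start of the next set. A fit of 1 common slope within these 12 arrays, beside a level for each set, was added after these values had been seen, so its p describes the pattern and is no independent support for it. The slope of ARNTL was 0.488 ± 0.051 log2 units per 9 h (adjusted p = 7.63e-05 in limma). Its p ranked 1 among the 12321 tested probes, while its slope was not the largest, as that of CCNB1 below shows. In this fit 4 probes of the array (0.0325%) passed, ARNTL among them. That count rose to 123 without the 45 h array, 72 without the 36 h array and 120 without the set from 36 to 45 h, where ARNTL ranked 4. ARNTL passed in all 20 other settings tried, which included leaving out each array and each later set in turn, with slopes from 0.446 to 0.739. The pattern repeats at the spacing of the sets themselves, so a recurrence every 12 h and an effect of the place of an array in its set cannot be told apart for ARNTL. Upward slopes in this fit were not particular to ARNTL. Those of the tested mitosis genes were all above 0, from 0.0141 ± 0.047 (MKI67) to 0.783 ± 0.17 (CCNB1, adjusted p = 0.0953 in limma). CDC20 had 0.497 ± 0.15, and none of the mitosis genes passed.

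No other clock gene passed. The slope of PER2 was -0.333 ± 0.12 per 9 h (adjusted p = 0.32), and that of CRY1 was 0.146 ± 0.037 (adjusted p = 0.131). PER2 passed with the median scaling, under which 188 probes did. At an unadjusted p under 0.05, 3 of 8 clock gene probes (ARNTL, CRY1 and PER2) passed, against 9.58% of all tested probes. DBP, CRY2, PER1 and CLOCK had slopes between -0.0684 and -0.0161. A general effect of the place of an array in its set was tested on all 16 arrays, beside the steps, in a fit that was also added after the values had been seen. It passed for 0 of 8 clock gene probes in limma (adjusted p from 0.936 to 0.994) and for 0% of the array, with 3 of 8 (CRY1, CRY2 and PER2) at an unadjusted p under 0.05 against 3.69% of all tested probes. ARNTL was not among them, since its first set ran against the later ones.

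**Figure D3:**
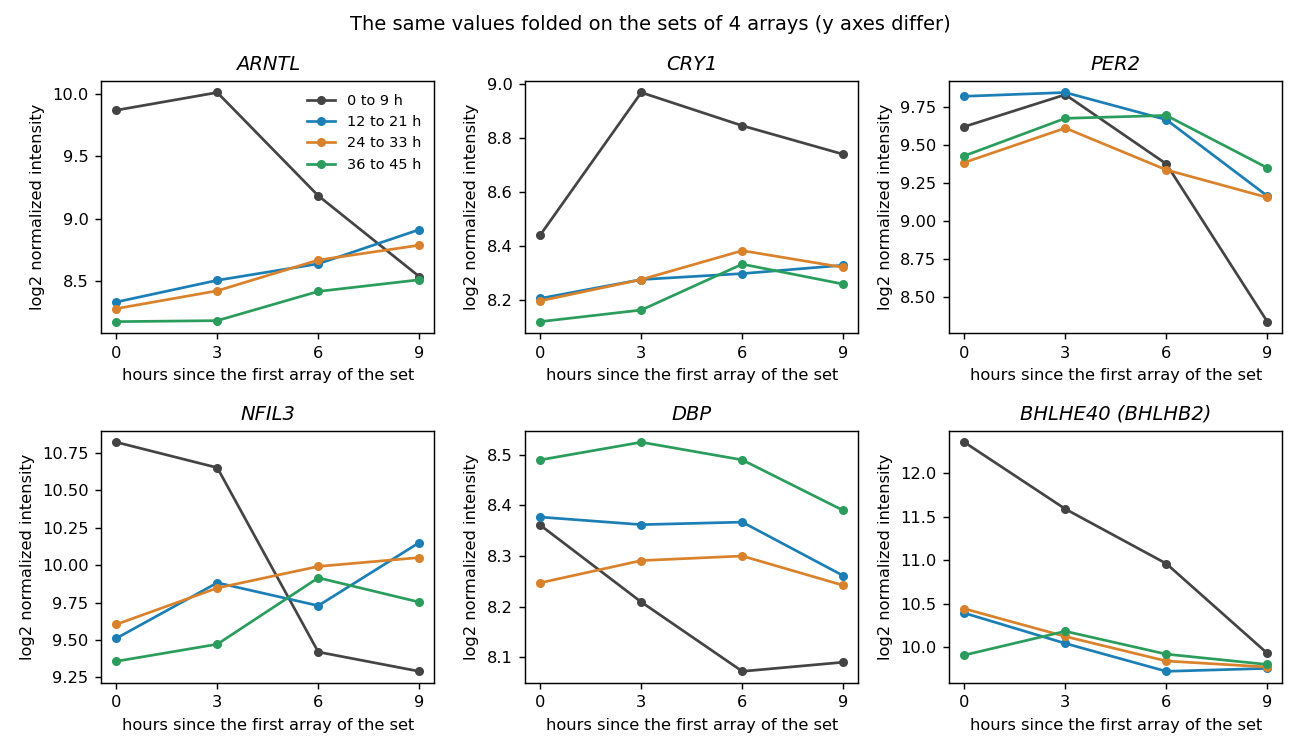
Log2 normalized intensity against hours since the first array of each set of 4, with 1 line per set, for ARNTL, CRY1, PER2, DBP and the other clock genes NFIL3 and BHLHE40. The 3 later ARNTL sets run upward in parallel, from 8.33 to 8.91, 8.28 to 8.79 and 8.18 to 8.51, while the first set falls from 9.87 to 8.54.

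The other parts of the clock were taken from a list of 23 genes, of which 20 were tested (not RORB, FBXW11 and HLF). The 24 h cosine passed for 0 of the 20 in limma and for 3 at an unadjusted p under 0.05 (NFIL3, GSK3B and NAMPT), against 9.36% of all tested probes. The steps passed for 8 of 20 (40%), against 45.7% of the whole array. Of the activators 0 of 3 passed, of the repressors 3 of 5, of the kinases and ubiquitin ligases 3 of 6 and of the output genes 2 of 6. The genes named here were chosen after their values were seen, because no gene passed the cosine. BHLHE40 (BHLHB2 in the table), which represses CLOCK and ARNTL targets, had set means of 11.21, 9.98, 10.04 and 9.95 (steps adjusted p = 0.0122), with 12.36 at 0 h and 9.93 at 9 h. NOCT (CCRN4L in the table), a clock output gene that encodes nocturnin, had set means of 9.19, 8.35, 8.29 and 8.18 (adjusted p = 0.0015), and GSK3B, a kinase of clock proteins, 10.59, 9.75, 9.68 and 9.21 (adjusted p = 0.000316). These 3 genes were highest in the first set, as ARNTL and CRY1 were. TIMELESS, which also acts in DNA replication, was instead highest in the middle, with set means of 9.26, 10.46, 10.32 and 9.34 (adjusted p = 0.000792).

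Within the later sets, 0 of the 20 other clock genes passed the test of a slope in limma and 6 did at an unadjusted p under 0.05, against 9.58% of all tested probes. NFIL3, a repressor that acts on D-boxes opposite to DBP, came nearest on the upward side, with 0.487 ± 0.092 per 9 h (adjusted p = 0.0752), the same size as ARNTL. It was 9.51, 9.88, 9.73 and 10.15 from 12 to 21 h, 9.60, 9.85, 9.99 and 10.05 from 24 to 33 h, and 9.36, 9.47, 9.92 and 9.75 from 36 to 45 h. BHLHE40 came nearest on the downward side, with -0.512 ± 0.11 (adjusted p = 0.0788). NPAS2, the paralog of CLOCK, had 0.124 ± 0.032 (adjusted p = 0.131). Of the 20 slopes 12 were above 0 and 8 below, and 50.4% of all tested probes were above 0.

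**Figure D4:**
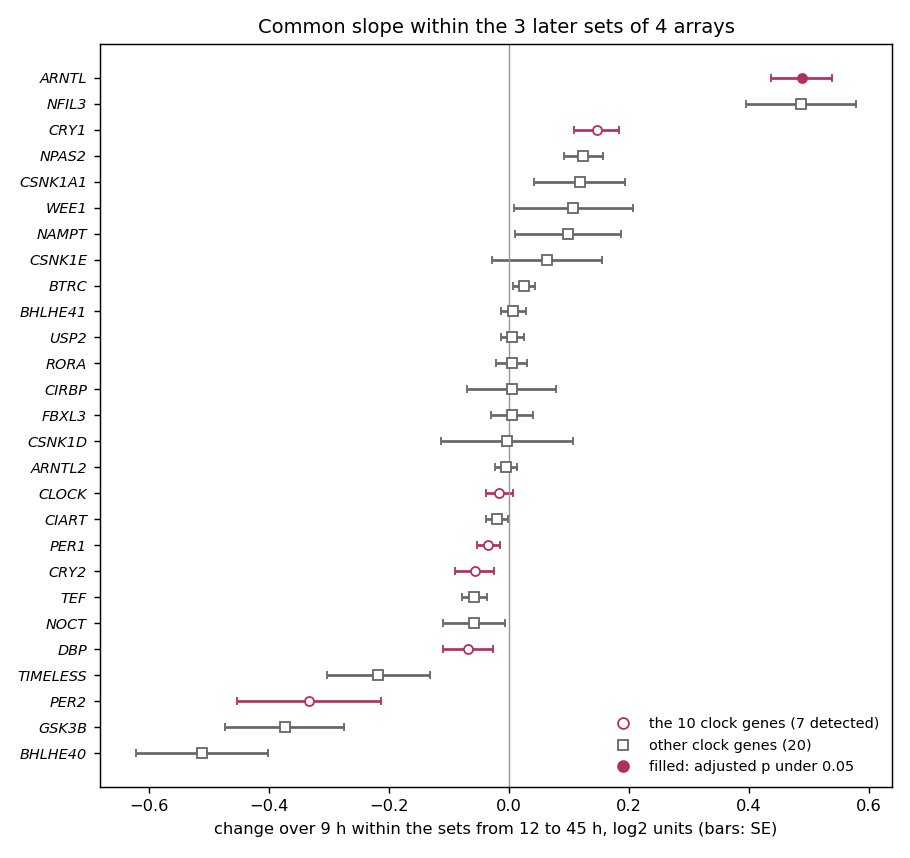
Change over 9 h in log2 units within the 3 sets from 12 to 45 h (horizontal axis, bars are the SE) for the 7 detected clock genes and 20 other clock genes (vertical axis, ordered by slope). ARNTL at 0.488 is the only one past an adjusted p of 0.05, with NFIL3 at 0.487 beside it and PER2 (-0.333) and BHLHE40 (-0.512) at the other end.

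Because the medium held a glucocorticoid and was renewed at 0 h, glucocorticoid-induced and immediate early genes were set beside the clock genes. Of 6 glucocorticoid-induced genes, all tested, 0 passed the cosine in limma (2 at an unadjusted p under 0.05, FKBP5 and KLF9, against 9.36% of all tested probes) and 5 passed the steps, against 45.7% of all tested probes. Their mean log2 intensity was 11.88, 12.01, 12.09 and 12.50 in the 4 sets. KLF9, a glucocorticoid target that in many tissues also follows the clock, had set means of 11.61, 12.19, 12.16 and 12.63, and DBP too was lowest in the first set and highest in the last after quantile normalization. TSC22D3 and ZBTB16 had this order too, but FKBP5 was highest in the second set. SGK1 was highest in the first set, with means of 12.23, 11.96, 11.9 and 11.97. DUSP1 was lowest in the second set, with means of 13.11, 12.8, 13.08 and 13.59. Of 9 immediate early genes 5 were tested and 4 passed the steps, against the same 45.7%, with a mean of 9.27 in the first set and of 8.90, 9.01 and 9.17 in the later ones. FOSB and EGR2, both in that mean, were detected on 3 and 4 arrays, near the bottom of the scale. Their mean log2 intensities were 7.935 and 7.943, and EGR2 was among the 4 that passed. FOS, which growth factors induce, was at 10.10 in the first set and between 9.34 and 9.38 after it. EGR1, another such gene, had set means of 12.00, 11.15, 11.63 and 12.39 and was highest in the last set.

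The 3 probes whose course over the 16 arrays was most like that of a clock gene past the steps were chosen by Pearson's r over all tested probes. For ARNTL they were IDI1 (r = 0.952), XBP1 (0.950) and C8orf41 (0.948). For CRY1 they were ARF1 (0.954), LARP6 (0.943) and LCE3D (0.941), and for DBP R3HDM2 (0.913), ZNF161 (0.902) and C1orf66 (0.901). All 9 passed the steps themselves, and the arrays share their sets, their dim members and the 0 h start, so these values describe likeness over these arrays only.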

How the data were processed

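RNA from MCF10HER2 cells at 16 time points was measured on Ref-8 v2 human beadchips from Illumina. The authors deposited, per the file headers, 1 intensity per probe and array, not yet normalized between arrays, each with a detection p-value against the negative controls of that array. The study's methods name quantile normalization and no test for a rhythm. The software that made the table is not given in the sources used here. Samples were grouped by the time in their labels, and every column of the table belongs to 1 of the 16 samples.

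Intensities were corrected and quantile normalized by the neqc function of limma 3.58.1 under R 4.3.3. The negative control mean and SD were derived from the detection p-values, the offset was 16 and the values were taken to log2. A probe was tested where its detection p was under 0.05 on at least 3 arrays. Terms for a 24 h cosine, for steps at 12, 24 and 36 h and for the cycle (0 to 21 h, 24 to 45 h) were tested by moderated F-tests (lmFit, eBayes with trend), with Benjamini-Hochberg adjustment over all 12321 tested probes and 0.05 as the threshold. Peak times and amplitudes have SEs by the delta method. With 1 array per time point, p-values measure only the scatter of these arrays about a curve, and the number of arrays limits the precision. The fits of the cosine, the steps and the cycle were first run on simulated data that held known 24 h cosines. The fits of the slope within the later sets and of the place of an array in its set were not. Where a gene had several detected probes, that with the highest mean is described.

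All probes of the 10 members were to be described, with the 3 probes most like each member that passed the cosine, and the 2 genes of each related list with the largest amplitude past it. None passed, so the genes that passed the steps were used in their place. The members and lists were chosen with earlier results of these data known. An item of the lists and a probe past the slope test are not reported here. Alternatives covered scaling, background correction, offset, filter, array weights, a level for each array background group, a straight line, the period (20, 22, 26 and 28 h) and single arrays left out.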

Additional observations from a re-analysis of the deposited data

Results flagged for a closer look

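Both results here were singled out because the fitted 24 h wave differed between the first and the second cycle by a test of the difference itself. The cosine and sine terms of ARNTL differed by 0.72 log2 units between 0 to 21 h and 24 to 45 h (limma, adjusted p = 0.00496), and those of CRY1 by 0.3 (adjusted p = 0.0257). Over the whole array 29.4% of tested probes passed this test, and the cycles coincide with the 2 background groups of the arrays.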

How the results depend on the processing

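No paired analysis was possible because there is a single array at every one of the times. The count of clock gene probes past the 24 h cosine stayed at 0 in all 12 planned settings and in each of 16 fits that left out 1 array, and that of the cosine beside the steps at 0 in all 11 and 16. The steps passed for 3 probes and, with median scaling, for 6. Leaving out 1 array gave 3 to 5. The 5 came without the 9 h array, where CRY2 and PER1 were added and 6668 of all 12321 probes passed. The steps beside the cosine passed for 2 (4630 of all 12321 probes) and, with median scaling, for 6 (8189 of all). They passed for 4 with array weights (6745 of all) and for 1 with a straight line (2424 of all). With a period of 20 h they passed for 4 (5259 of all) and of 28 h for 4 (5455 of all). Leaving out 1 array gave 1 to 3. The difference between cycles passed for 2 (3618 of all 12321 probes) and, without background correction, for 1 (3674 of all). With a period of 26 h it passed for 4 (4021 of all). With a period of 20 h it passed for 0, as for 0 probes of the whole array, so that loss is not particular to the clock genes. Leaving out 1 array gave 1 to 4, with 4 without the 12 or the 21 h array. The slope within the later sets, added after the data were seen, passed for 1 and, with median scaling, for 2; leaving out 1 array gave 1 in each of 12 fits. The fitted amplitude of ARNTL ran from 0.0936 to 0.551 over 26 settings and that of DBP from 0.0649 to 0.254, and no clock gene passed the cosine in any of them (lowest adjusted p 0.0833, DBP, with a level for each array background group, where 16 of 12321 probes passed against 0). The cause of these shifts was not tested. Under median scaling the median 12 h step of all tested probes was -0.259 against -0.00525, and the steps passed for 9712 of 12321 probes against 5635.

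The main limit is 1 array per time point with no later untreated culture. Probes of 3 clock genes were not above background, and those of CLOCK, PER1 and CRY2 were near it, so that small changes there could not be detected.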
